A study of Fukomys damarensis and Heterocephalus glaber and Cavia porcellus with 28 samples.

Results

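The 10 genes described here encode membrane carriers of amino acids or zinc or, for Slc3a2, a heavy chain of such carriers. These genes are Slc6a9, Slc1a4, Slc1a5, Slc7a5, Slc3a2, Slc7a2, Slc38a2, Slc38a4, Slc39a5 and Slc39a14. They were chosen by symbol, and all 10 were found among the 13928 genes of the liver table and of the heart table. The choice was made with liver values in view: Slc6a9, Slc1a4 and Slc39a5 were already known to stand high in mole-rat liver. For that reason the differences of the 10 genes between mole-rats and outgroups in liver are given below as a description, with no test. For them, tests are given for liver differences within the mole-rats and within the outgroups, and for heart. Other listed genes and markers are also tested between mole-rats and outgroups in liver.

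RNA from heart and liver, depleted of ribosomal RNA, was sequenced in 4 rodents. The mole-rats were the naked mole-rat (Heterocephalus glaber; 4 livers and 3 hearts, aged 13 to 17 months) and the Damaraland mole-rat (Fukomys damarensis; 5 livers and 5 hearts, aged 36 to 48 months). The outgroups were the guinea pig (3 livers and 3 hearts, 2.3 months) and the mouse (2 livers and 3 hearts, 2 months), and no strain, genotype or treatment is given for any of them. All animals were male except the female of Damaraland liver replicate 4. Damaraland animal DMR1 is labelled 48 months for its heart and 36 months for its liver. Species and age cannot be told apart, since the outgroups were all younger than the mole-rats.

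Amino acid carriers of the plasma membrane work in different ways. Sodium-coupled carriers such as those of the SLC6 and SLC38 families draw amino acids into the cell. Exchangers such as SLC7A5, bound to its heavy chain SLC3A2, swap one amino acid for another. In liver these carriers feed protein synthesis, gluconeogenesis and the urea cycle. Zinc carriers of the SLC39 family (ZIP proteins) bring zinc into the cytosol.

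Values are on the deposited log2-like (variance-stabilised) scale, on which a gene with 0 reads has 4.29 in liver and 5.36 in heart. A 2-fold change moves the value by 0.97 when it starts from 1000 scaled reads in liver, but by 0.39 when it starts from 10. Scaled reads are reads recovered from the deposited values and divided by the size factor of the library. They hold no correction for gene length, so each gene is compared with itself across species and tissues, and not with other genes. Differences in annotated transcript length between species were not tested. A gene was called where the limma p, adjusted by Benjamini-Hochberg over all genes tested, was under 0.05 and the difference was at least 1. The p-values measure the spread between animals. Recovered totals ran from 11220505 to 21467939 reads in liver and from 4089633 to 26985779 in heart, the lowest being naked mole-rat heart replicate 3. The 9 cardiomyocyte markers summed to between 785913 and 2162851 scaled reads in the hearts and to between 584 and 3887 in the livers.

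Slc6a9, the glycine carrier GLYT1, had high levels in mole-rat liver, a moderate level in mouse liver and few reads in guinea pig liver. The naked mole-rat livers had log2-like values of 12.47, 12.36, 12.79 and 12.38. The Damaraland livers had 13.77, 13.85, 13.74, 14.08 and 14.10. Guinea pig livers had 5.98, 5.34 and 5.79, and the mouse livers 9.90 and 10.23. No library of one species overlapped another, and the order was Damaraland mole-rat, naked mole-rat, mouse, guinea pig. Scaled reads averaged 15420 ± 1868 (SD, n = 5) for the Damaraland livers, 5801 ± 861 (SD, n = 4) for the naked mole-rat livers, 1040 ± 178 (SD, n = 2) for the mouse livers and 21.3 ± 9.79 (SD, n = 3) for the guinea pig livers. The outgroups themselves were far apart: guinea pig was below mouse by -4.36 (SE 0.22; limma adjusted p 3.27e-11), with all 3 guinea pig livers below both mouse livers. In bulk tissue, more cells of a type and more RNA per cell cannot be told apart, here and below.

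Slc1a4, a carrier of alanine, serine and cysteine (ASCT1), was high in both mole-rats and low in both outgroups. The naked mole-rat livers had values of 10.91, 11.17, 11.26 and 11.39, and the Damaraland livers 10.52, 10.05, 10.65, 10.22 and 9.63. The guinea pig livers had 5.36, 5.25 and 5.46, and the mouse livers 6.72 and 6.69. The lowest mole-rat liver lay 2.92 above the highest outgroup liver. Scaled reads averaged 2302 ± 322 (SD, n = 4) for naked mole-rat livers and 1186 ± 323 (SD, n = 5) for Damaraland livers. Guinea pig livers averaged 11.3 ± 2.24 (SD, n = 3) and mouse livers 68.9 ± 1.04 (SD, n = 2). Every naked mole-rat liver was above every Damaraland liver, by 0.97 on average (SE 0.18; limma adjusted p 0.000137). That difference was under the 1 unit needed for a call, and it reached 1.08 without Damaraland liver replicate 3, 1.06 without naked mole-rat liver replicate 1 and 1.04 without Damaraland liver replicate 1. With libraries centred on their median it was 1.004, which is also a call. Guinea pig was below mouse by -1.35 (SE 0.24; limma adjusted p 0.000147), without overlap.

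Slc39a5 (ZIP5), a zinc carrier of the basolateral membrane, was at much the same level in both mole-rats. The naked mole-rat livers had 11.29, 11.27, 11.64 and 11.44, and the Damaraland livers 11.61, 11.49, 11.45, 11.62 and 11.68. Guinea pig livers had 7.67, 8.20 and 7.56, and mouse livers 5.43 and 5.15. The mole-rats overlapped each other and differed by -0.16 (SE 0.15; limma adjusted p 0.337). Guinea pig was 2.51 above mouse (SE 0.20; limma adjusted p 1.11e-08), where all 3 guinea pig livers were higher. Scaled reads averaged 2694 ± 329 (SD, n = 4) for naked mole-rat livers and 3008 ± 203 (SD, n = 5) for Damaraland livers, but 191 ± 56.7 (SD, n = 3) for guinea pig livers and 10.1 ± 4.05 (SD, n = 2) for mouse livers. The mouse value rests on 10 and 11 reads.

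**Figure D1:**
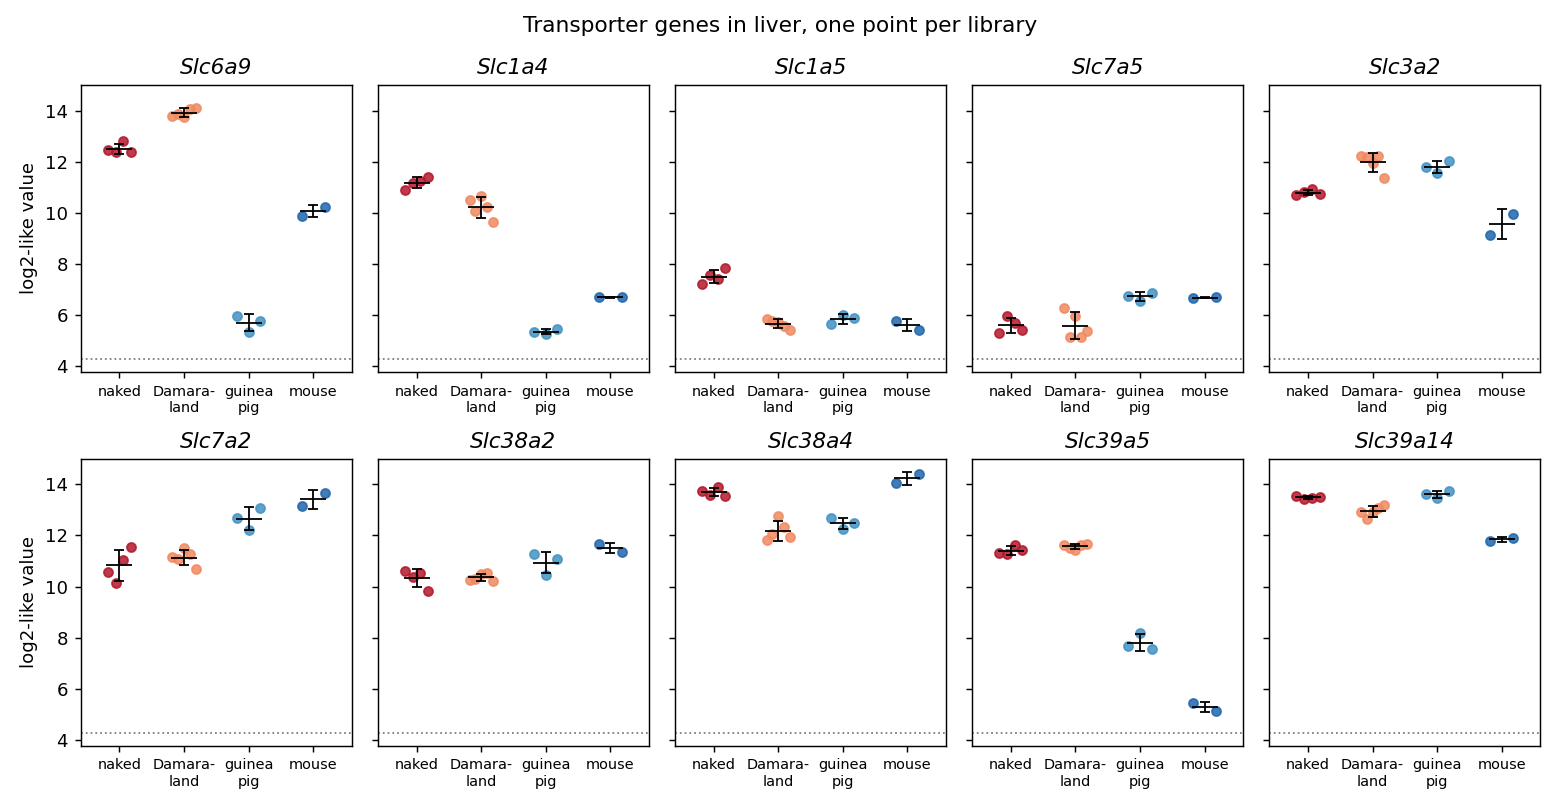
Liver values of the 10 transporter genes on the log2-like scale (y axis), by species (x axis). Points are libraries, black bars mean ± SD, and the dotted line the value of 0 reads (4.29). Slc6a9, Slc1a4 and Slc39a5 stand above both outgroups in both mole-rats, and Slc7a2 and Slc7a5 below them.

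Of the 10 genes, 5 had a mean difference of at least 1 between the mole-rats and the outgroups, in either direction, where 28.1% of the 10887 genes tested in liver did. Slc6a9 (5.32, SE 0.13), Slc39a5 (4.94, SE 0.12) and Slc1a4 (4.67, SE 0.15) were higher, and Slc7a2 (-2.05, SE 0.22) and Slc7a5 (-1.11, SE 0.19) lower. The other 5 lay between -0.87 (Slc38a2) and 0.86 (Slc1a5). The first 5 kept their size of at least 1 and their sign in each of the 4 pairings of a mole-rat with an outgroup (6.34% of all genes), and their mole-rat and outgroup livers did not overlap (16.1% of all genes). Since the genes were picked with this contrast known, nothing is read from these counts.

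Slc7a2 (CAT2), the carrier of arginine and other cationic amino acids in liver, was lower in mole-rat livers. Naked mole-rat livers had 10.57, 10.14, 11.05 and 11.56, and Damaraland livers 11.16, 11.08, 11.50, 11.27 and 10.68. Guinea pig livers had 12.69, 12.21 and 13.08, and mouse livers 13.13 and 13.68. The highest mole-rat liver was thus below the lowest outgroup liver. Scaled reads averaged 1909 ± 826 (SD, n = 4) for naked mole-rat livers, 2250 ± 457 (SD, n = 5) for Damaraland livers, 6623 ± 1950 (SD, n = 3) for guinea pig livers and 11002 ± 2899 (SD, n = 2) for mouse livers. The mole-rats differed by -0.31 (SE 0.26; limma adjusted p 0.301) and overlapped. Guinea pig minus mouse was -0.75 (SE 0.35; limma adjusted p 0.0755), with no overlap between 3 and 2 libraries.

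Slc7a5 (LAT1), the light chain that exchanges large neutral amino acids, had few reads in liver of all 4 species. The mole-rat livers ran from 5.16 to 6.30, both extremes being Damaraland, and the outgroup livers from 6.55 to 6.88. In reads this was 7 to 42 per mole-rat library and 56 to 121 per outgroup library. The differences within the mole-rats (0.00, SE 0.23; limma adjusted p 0.995) and within the outgroups (0.04, SE 0.31; limma adjusted p 0.917) were smaller than their errors. Slc3a2 (CD98), the heavy chain that carries SLC7A5 and related light chains to the membrane, followed another order. The naked mole-rat livers had 10.70, 10.82, 10.92 and 10.74, and the Damaraland livers 12.23, 12.19, 11.94, 12.22 and 11.35. The guinea pig livers had 11.78, 11.54 and 12.04, and the mouse livers 9.14 and 9.97. Naked mole-rat was below Damaraland by -1.19 (SE 0.20; limma adjusted p 4.89e-05), and guinea pig was 2.23 above mouse (SE 0.27; limma adjusted p 2.01e-06), both without overlap. Damaraland mole-rat and guinea pig livers overlapped.

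Slc1a5 (ASCT2), the glutamine carrier most known from dividing cells, had few reads in liver and was highest in the naked mole-rat, with 7.22, 7.56, 7.40 and 7.85. The Damaraland livers had 5.86, 5.76, 5.72, 5.58 and 5.42, the guinea pig livers 5.66, 6.01 and 5.90, and the mouse livers 5.77 and 5.44. The naked mole-rat was 1.84 above Damaraland (SE 0.16; limma adjusted p 2.46e-08), with all 4 naked mole-rat livers above all 5 Damaraland livers. Scaled reads averaged 147 ± 34.7 (SD, n = 4) for naked mole-rat livers and 19.6 ± 4.96 (SD, n = 5) for Damaraland livers, a ratio of 7.52. Damaraland mole-rat, guinea pig and mouse livers overlapped, and guinea pig minus mouse was 0.25 (SE 0.22; limma adjusted p 0.339).

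The SLC38 carriers take up small neutral amino acids together with sodium. Slc38a4 (SNAT4), a carrier known from hepatocytes, had values of 13.72, 13.58, 13.89 and 13.55 in the naked mole-rat livers. The Damaraland livers had 11.80, 12.06, 12.76, 12.32 and 11.94, the guinea pig livers 12.69, 12.25 and 12.48, and the mouse livers 14.05 and 14.41. The naked mole-rat was 1.51 above Damaraland (SE 0.19; limma adjusted p 1.79e-06), and guinea pig was below mouse by -1.76 (SE 0.26; limma adjusted p 1.56e-05). Libraries did not overlap in either comparison. The order was therefore mouse, naked mole-rat, and then guinea pig and Damaraland mole-rat, which overlapped. Slc38a2 (SNAT2), whose transcript is known to respond to amino acid supply, ranged from 9.84 to 10.61 over the mole-rat livers and from 10.46 to 11.65 over the outgroup livers, which overlapped through 1 guinea pig liver, replicate 2. The mole-rats differed by -0.02 (SE 0.18; limma adjusted p 0.926), and guinea pig minus mouse was -0.58 (SE 0.25; limma adjusted p 0.0526).

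Slc39a14 (ZIP14), which brings zinc, manganese and non-transferrin iron into hepatocytes, had values of 13.54, 13.43, 13.47 and 13.50 in the naked mole-rat livers and 12.91, 12.63, 12.90, 13.07 and 13.18 in the Damaraland livers. The guinea pig livers had 13.62, 13.46 and 13.74, and the mouse livers 11.76 and 11.92. Scaled reads averaged 11440 ± 352 (SD, n = 4) for naked mole-rat livers and 3636 ± 279 (SD, n = 2) for mouse livers. Naked mole-rat and guinea pig livers overlapped, and the mouse livers lay below all others. Guinea pig was 1.76 above mouse (SE 0.19; limma adjusted p 6.43e-07). Every naked mole-rat liver was above every Damaraland liver, by 0.55 (SE 0.14; limma adjusted p 0.00259), which is under the size needed for a call. Mouse was thus the lower outgroup for both zinc carriers, and guinea pig for the glycine carrier Slc6a9.

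With Slc6a9 left out, Slc1a5, Slc38a4 and Slc3a2 were called between naked and Damaraland liver, where 34.2% of all genes were. The libraries of 6 of the 10 genes, Slc6a9 among them, did not overlap (57.0% of all genes). Slc1a5 and Slc38a4 were higher in naked mole-rat and Slc3a2 was lower. Slc6a9 was lower by -1.41 too, but its high Damaraland level was known when it was chosen, so no test is given. Between guinea pig and mouse liver 6 of 10 were called, where 37.2% of all genes were, and the libraries of 8 did not overlap (70.7% of all genes). Slc39a5, Slc39a14 and Slc3a2 were higher in guinea pig, and Slc6a9, Slc1a4 and Slc38a4 were lower.

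**Figure D2:**
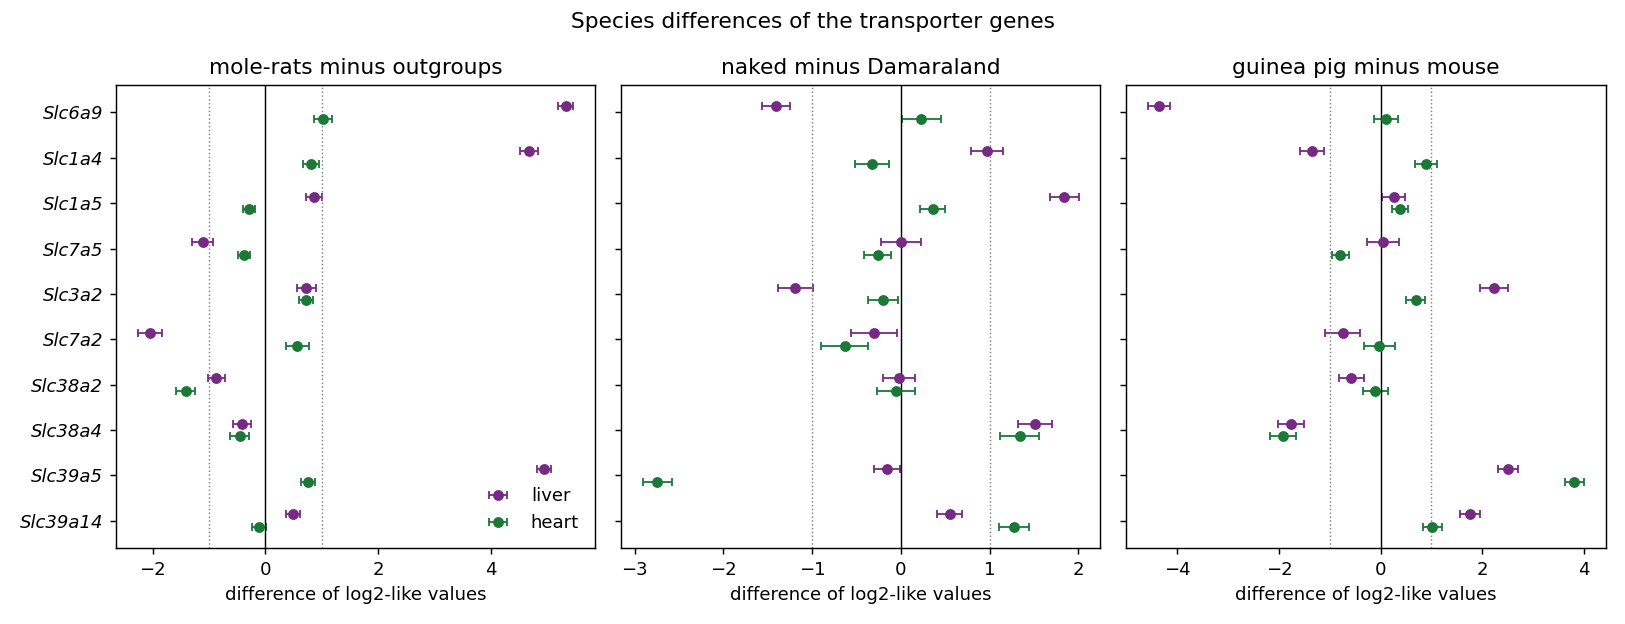
Differences of the 10 genes on the log2-like scale (x axis) in 3 contrasts, for liver (purple) and heart (green). Points are differences of species means, bars the limma standard error, and dotted lines a difference of 1. Slc6a9, Slc1a4 and Slc39a5 lie between 4.67 and 5.32 in liver and between 0.75 and 1.02 in heart for the mole-rats minus the outgroups.

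The genes were chosen with liver values in view, but earlier results of these data were known and 10 of the 18 animals gave both tissues. The heart tests are therefore not fully independent of the choice. In heart, 2 of the 10 genes were called between the mole-rats and the outgroups, where 23.4% of the 10667 genes tested were. Slc38a2 was lower in mole-rat heart. The naked mole-rat hearts had 10.75, 10.47 and 10.37, and the Damaraland hearts 11.17, 10.31, 11.00, 10.41 and 10.06. The guinea pig hearts had 11.78, 11.96 and 12.03, and the mouse hearts 11.88, 12.09 and 12.11. All 8 mole-rat hearts were below all 6 outgroup hearts, and the difference was -1.42 (SE 0.16; limma adjusted p 9.91e-07). It was also the only 1 of the 10 called in all 4 pairings of a mole-rat with an outgroup (4.68% of all genes), with differences from -1.33 to -1.50. Scaled reads averaged 1408 ± 209.9 (SD, n = 3) for naked mole-rat hearts and 1527 ± 535 (SD, n = 5) for Damaraland hearts. Guinea pig hearts averaged 3812 ± 332 (SD, n = 3) and mouse hearts 4103 ± 353 (SD, n = 3).

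Slc6a9 was the other gene called in heart, at a low level. The naked mole-rat hearts had 7.96, 7.66 and 8.50, and the Damaraland hearts 7.79, 8.07, 7.77, 7.90 and 7.52. The guinea pig hearts had 7.29, 6.96 and 6.60, and the mouse hearts 6.94, 7.18 and 6.42. All mole-rat hearts were above all outgroup hearts, and the difference was 1.02 (SE 0.16; limma adjusted p 3.25e-05). Without naked mole-rat replicate 3 it was 0.91, without mouse replicate 3 it was 0.92, without guinea pig replicate 3 it was 0.94 and without Damaraland replicate 2 it was 0.99, each just under the size for a call. With voom on the recovered reads it was 1.64 (SE 0.27; limma adjusted p 5.24e-05). Guinea pig and mouse hearts overlapped and differed by 0.11 (SE 0.24; limma adjusted p 0.727).

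Slc1a4 and Slc3a2 were also higher in all 8 mole-rat hearts than in all 6 outgroup hearts, by differences under 1 unit. Together with Slc6a9 these were 3 of 10 genes whose mole-rat hearts all lay above the outgroup hearts, where 7.57% of all genes did. Slc1a4 differed by 0.81 (SE 0.14; limma adjusted p 9.89e-05), and by 1.44 with voom on the recovered reads (limma adjusted p 6.96e-05), which is a call. The naked mole-rat hearts had 7.71, 7.50 and 7.56, the Damaraland hearts 7.56, 7.99, 7.64, 7.82 and 8.58, the guinea pig hearts 7.37, 7.45 and 7.35, and the mouse hearts 6.35, 6.51 and 6.64. The gap to guinea pig was small, with naked minus guinea pig at 0.20 (SE 0.21; limma adjusted p 0.435). Slc3a2 differed by 0.72 (SE 0.13; limma adjusted p 8.84e-05), and its lowest mole-rat heart lay 0.03 above its highest outgroup heart.

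**Figure D3:**
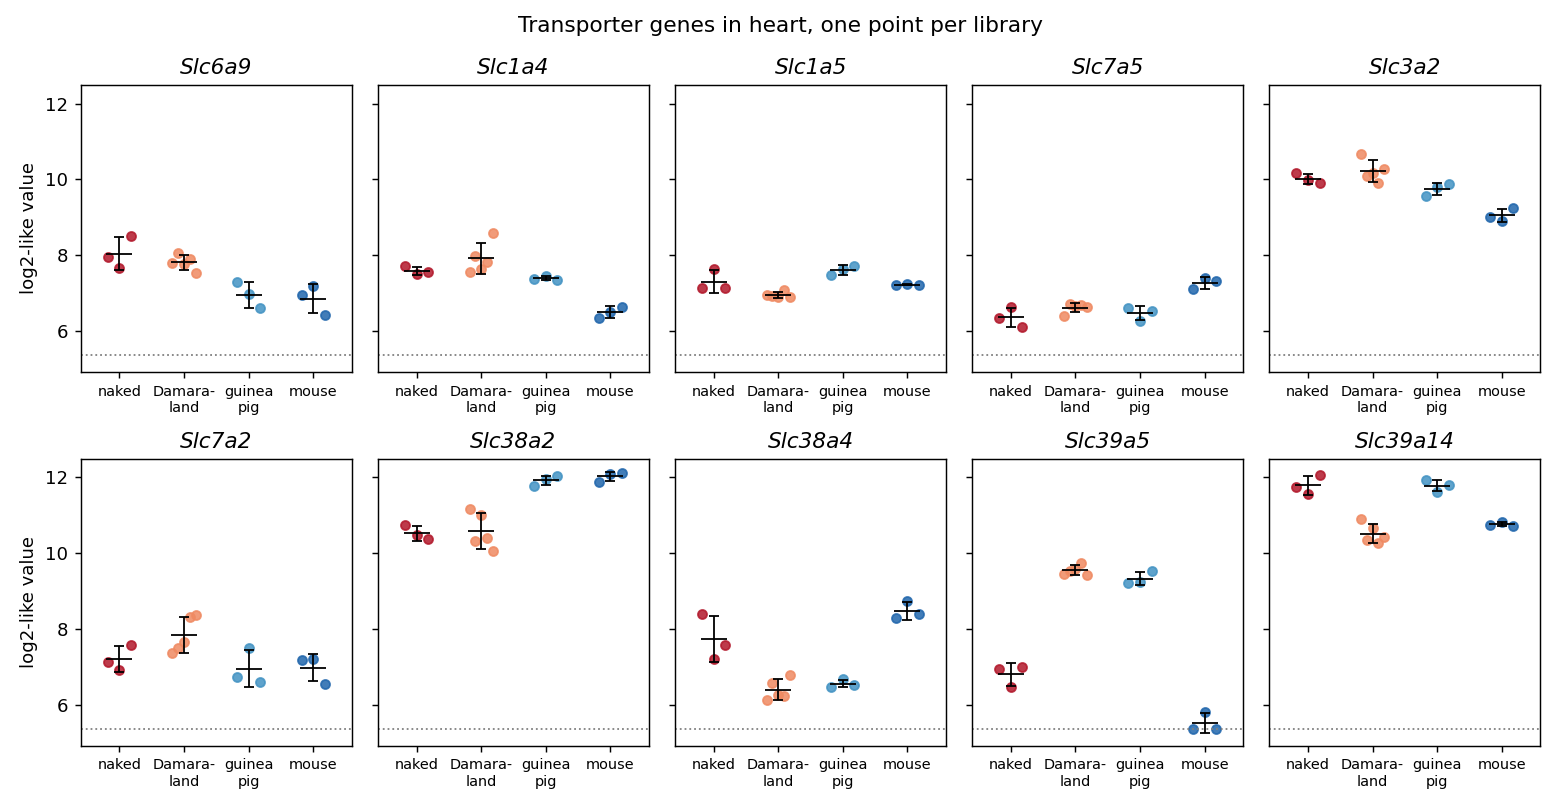
Heart values of the 10 transporter genes on the log2-like scale (y axis), by species (x axis). Points are libraries, black bars mean ± SD, and the dotted line the value of 0 reads (5.36). Slc38a2 is lower in all 8 mole-rat hearts, and Slc39a5 is high in Damaraland mole-rat and guinea pig and low in naked mole-rat and mouse.

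In heart Slc39a5 divided the species in another way than in liver. The naked mole-rat hearts had 6.94, 6.45 and 7.01, the Damaraland hearts 9.44, 9.54, 9.59, 9.74 and 9.41, and the guinea pig hearts 9.22, 9.24 and 9.52. Mouse heart replicate 2 had 5.81, from 5 reads, and the other mouse hearts had 0 reads. Naked mole-rat was below Damaraland mole-rat by -2.75 (SE 0.16; limma adjusted p 4.68e-10) and below guinea pig by -2.53 (SE 0.18; limma adjusted p 5.99e-09). Damaraland minus guinea pig was 0.22 (SE 0.16; limma adjusted p 0.256), and these hearts overlapped. The difference of the mole-rats from the outgroups, 0.75 (SE 0.12; limma adjusted p 4.31e-05), is a mean over these species. With voom it was 2.89 (limma adjusted p 8.45e-06), which is a call.

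Between the mole-rat hearts, 3 of 10 genes were called (29.4% of all genes): Slc39a5, Slc38a4 and Slc39a14. Slc39a14 was higher in naked mole-rat by 1.27 (SE 0.17; limma adjusted p 5.94e-06), with values of 11.74, 11.57 and 12.06 against 10.91, 10.34, 10.65, 10.27 and 10.43. Slc38a4 was higher in naked mole-rat by 1.34 (SE 0.22; limma adjusted p 7.37e-05), with values of 8.39, 7.21 and 7.59 against 6.11, 6.58, 6.25, 6.23 and 6.79. These groups did not overlap for any of the 3 genes. Between guinea pig and mouse hearts, 3 of 10 were called (32.1% of all genes). Slc39a5 was higher in guinea pig by 3.82 (SE 0.18; limma adjusted p 3.35e-11) and Slc39a14 by 1.02 (SE 0.19; limma adjusted p 0.000197). Slc39a14 was under the size for a call without guinea pig heart replicate 1 (0.95) or mouse heart replicate 3 (0.99). Slc38a4 was lower in guinea pig, by -1.92 (SE 0.25; limma adjusted p 5.74e-06). With voom 5 of 10 were called between these hearts, the added genes being Slc1a4 (1.85) and Slc7a5 (-1.68).

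Slc1a5, Slc7a5 and Slc7a2 were called in none of the 3 main heart contrasts. Slc1a5 ranged from 6.89 to 7.72 over all hearts, lowest in Damaraland mole-rat. Slc7a5 was 7.10, 7.39 and 7.31 in mouse heart and from 6.11 to 6.72 in the other species. Slc7a2 ranged from 6.55 to 8.37 and was highest in 2 Damaraland hearts, replicates 4 and 5. Naked minus Damaraland for Slc7a2 was -0.64 (SE 0.27; limma adjusted p 0.0492), and -1.15 with voom (limma adjusted p 0.034), which is a call.

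Markers of other cells moved with some of these heart results. Of the 9 hepatocyte markers in the table (of 12 listed), 8 were called higher in mole-rat heart and 0 lower by limma (10.8% and 12.6% of all genes in heart). At an unadjusted p under 0.05 and with voom, 0 were lower too. Alb differed by 3.43 (limma adjusted p 7.28e-07). Their summed scaled reads were 11950 to 32629 over the naked mole-rat hearts, 2323 to 5825 over the Damaraland hearts, 918 to 2443 over the guinea pig hearts and 406 to 1331 over the mouse hearts. As reads per 1000000 recovered reads (rpm), the naked mole-rat hearts had 1.15% of the level of these markers in liver, the Damaraland hearts 0.211%, the guinea pig hearts 0.124% and the mouse hearts 0.0441%. For Slc38a4 these shares were 1.17%, 0.494%, 0.542% and 1.04% in the same order, so that the naked mole-rat share was close to that of the hepatocyte markers and the others were above it. The naked mole-rat hearts with 2021, 818 and 2028 rpm of hepatocyte markers had 16.0, 5.28 and 7.82 rpm of Slc38a4. The part of hepatocyte RNA in the heart difference of Slc38a4 was not tested. For Slc6a9 the share was 3.50% in the naked mole-rat and 0.984% in the Damaraland mole-rat, above that of the hepatocyte markers in both. The same 3 naked mole-rat hearts had 10.7, 8.75 and 18.8 rpm of Slc6a9. The part of hepatocyte RNA in the heart difference of Slc6a9 was not tested either.

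Set side by side in rpm, the tissues differed in a way that depended on the species. These levels come from tables that were normalised separately, so no test is given. Slc6a9 had 365 ± 53.9 (SD, n = 4) rpm in naked mole-rat liver and 12.8 ± 5.34 (SD, n = 3) in its heart. In Damaraland mole-rat it had 1145 ± 157 (SD, n = 5) in liver and 11.3 ± 2.12 (SD, n = 5) in heart, and in mouse 78.3 ± 13.1 (SD, n = 2) and 2.75 ± 1.46 (SD, n = 3). In guinea pig the order was the other way round, with 1.57 ± 0.625 (SD, n = 3) in liver and 4.45 ± 1.96 (SD, n = 3) in heart. Liver was above heart in every naked mole-rat, Damaraland and mouse library, and heart above liver in every guinea pig library.

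The same reversal was seen in guinea pig for Slc1a4 and Slc39a5. Slc1a4 had 0.844 ± 0.0767 (SD, n = 3) rpm in guinea pig liver and 7.38 ± 0.751 (SD, n = 3) in guinea pig heart. In naked mole-rat it had 145 ± 23.5 (SD, n = 4) in liver and 7.78 ± 0.532 (SD, n = 3) in heart. Slc39a5 had 14.9 ± 6.41 (SD, n = 3) in guinea pig liver and 43.6 ± 5.67 (SD, n = 3) in guinea pig heart. In Damaraland mole-rat it had 224 ± 24.2 (SD, n = 5) in liver and 50.0 ± 6.82 (SD, n = 5) in heart, and in naked mole-rat 170 ± 22.9 (SD, n = 4) and 2.98 ± 1.16 (SD, n = 3). Guinea pig hearts thus held more Slc39a5 than naked mole-rat hearts, and guinea pig livers less than naked mole-rat livers.

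**Figure D4:**
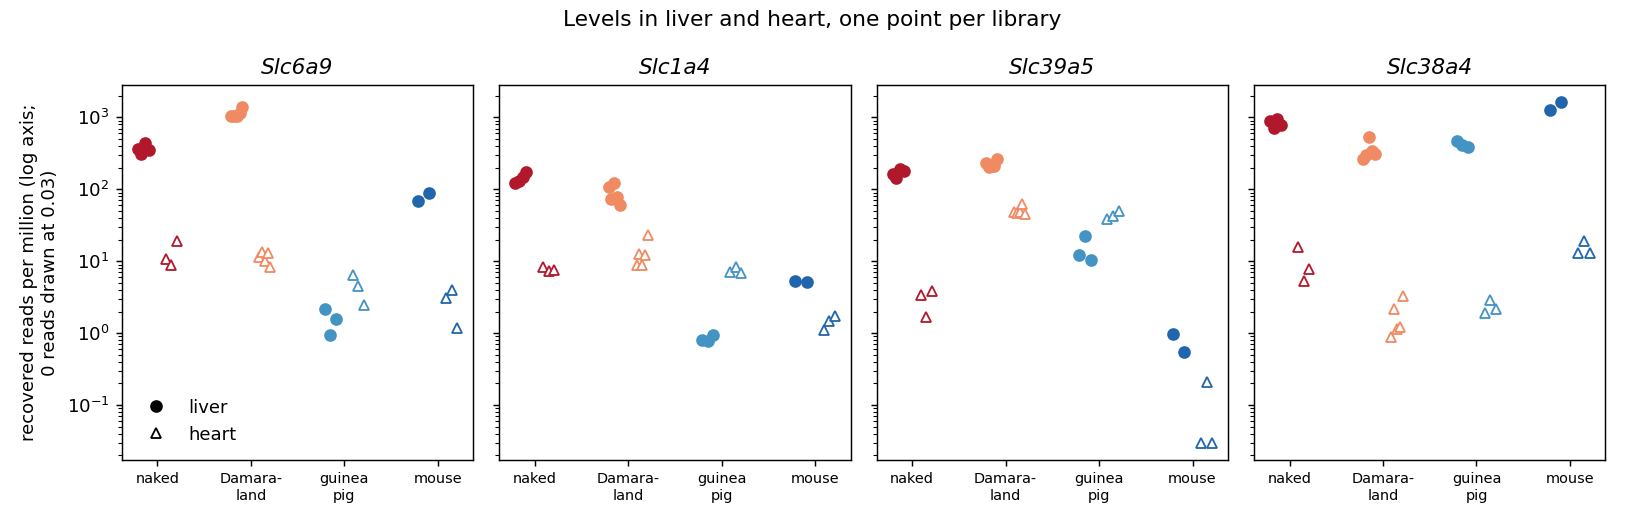
Recovered rpm (y axis, logarithmic, with 0 drawn at 0.03) of Slc6a9, Slc1a4, Slc39a5 and Slc38a4 in liver (filled circles) and heart (open triangles) by species, with points for libraries. Guinea pig has more Slc6a9, Slc1a4 and Slc39a5 in heart than in liver, and all 4 species have more Slc38a4 in liver than in heart.

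In liver, the cell type markers were compared alongside. Of 9 hepatocyte markers 0 were called between mole-rats and outgroups by limma (28.1% of all genes were). At an unadjusted p under 0.05, 2 were higher and 5 lower, and with voom 0 were called. Beside this, the markers summed to 1605138 to 2973898 scaled reads in the mole-rats and 969288 to 1613503 in the outgroups. The 5 erythroid markers in the table (of 12 listed), which matter since GLYT1 is also known from red cell precursors, summed to 346 to 1293 in the mole-rats and 1684 to 2608 in the outgroups. The guinea pig livers alone summed to 1684 to 2276, with Tfrc included in the sum. The part of red cell precursors in the Slc6a9 values was not tested. Alas2, the erythroid enzyme of haem synthesis, was lower in mole-rats by -2.33 (SE 0.22; limma adjusted p 5.13e-08), where mouse had a mean of 10.80 and guinea pig, at 7.39, was near the mole-rats (7.02 and 6.51). The 8 pancreas and gut markers (of 12 listed), looked at since ZIP5 is also known from pancreas and intestine, summed to 27.1 to 90.3 in the mole-rats, 6.78 to 16.1 in guinea pig and 1262 to 2031 in mouse. Cdx2 had 0 reads in every liver and Cel in every Damaraland, guinea pig and mouse liver. Fabp2 was lower in mole-rats than in the mean of the outgroups by -2.16 (SE 0.20; limma adjusted p 3.67e-08). It had 0 reads in every guinea pig liver, so neither mole-rat was below guinea pig.

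Bile duct markers, 8 of 10 listed, summed to 4997 to 7087 in naked mole-rat and to 2287 to 4521 in the other species. Of 7 tested, 1 was called higher and 2 lower, where 15.1% of all genes tested in liver were called higher and 13.0% lower. Epcam was higher (2.63), with a mean of 11.17 in naked mole-rat and of 5.64 to 6.68 in the other species, and Spp1 was among those lower (-1.16). Kupffer and leukocyte markers, 6 of 11 listed, summed to 1173 to 3596 in the mole-rats and 2298 to 6079 in the outgroups. Of 6 tested, 0 were called higher and 3 lower: Cd3e (-2.65), Cd5l (-1.25) and Cd79a (-1.15). Cd3e and Cd79a were high in guinea pig only, at 10.35 and 8.52. Stellate and endothelial markers, 11 of 12 listed, summed to 9338 to 16329 in the mole-rats, 14418 to 17727 in guinea pig and 7074 to 7208 in mouse. Of 11 tested, 1 was called lower, Dcn (-3.50), and 1 higher, Pdgfrb (1.61). Cardiomyocyte markers, 9 listed, summed to 584 to 3887 over all livers. Of 8 tested, 1 was called higher, Myl2 (1.45), and 0 lower. Of the bile duct, Kupffer, leukocyte and cardiomyocyte markers, 0 were called in all 4 pairings of a mole-rat with an outgroup. The part of these cells in the liver values was not tested.

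The genes around the carriers were taken from lists, none of which holds a member. The lists were chosen with earlier results of these data known, and the genes named are the 3 largest called liver differences of each. Among all genes tested in liver, 15.1% were called higher and 13.0% lower in the mole-rats, and the median difference was 0.02. Of 26 other amino acid carriers tested (33 of 36 in the table), 3 were higher and 9 lower, with a median of -0.34. Slc1a2, the glutamate carrier GLT-1, had the largest difference in this list, -6.92 (SE 0.18; limma adjusted p 5.74e-15). The naked mole-rat livers averaged 4.93 ± 0.48 (SD, n = 4) and the Damaraland livers 4.99 ± 0.20 (SD, n = 5), while the guinea pig livers averaged 11.86 ± 0.38 (SD, n = 3) and the mouse livers 11.89 ± 0.06 (SD, n = 2). In scaled reads Slc1a2 had means of 5.85 and 4.98 in the mole-rats against 3762 and 3768 in the outgroups.

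Slc6a13, a carrier of GABA and taurine (GAT2), was also called lower in all 4 pairings, by -3.62 on average (SE 0.15; limma adjusted p 2.35e-12), and it was lowest in naked mole-rat, at 5.77, where the other species had 10.51 (Damaraland), 11.78 (guinea pig) and 11.74 (mouse). Slc6a20a, a proline carrier, was 2.88 higher (SE 0.14; limma adjusted p 1.58e-11). Mouse was low, at 4.47, while guinea pig had 10.01 and the mole-rats 9.98 and 10.26. Slc1a2 and Slc6a13 were the only 2 of the 26 called in all 4 pairings in liver (6.29% of all genes), both lower.

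Of 15 other zinc carriers and metal response genes tested (16 of 23 in the table), 1 was higher and 4 lower, with a median of -0.51. Slc39a4 (ZIP4), the intestinal zinc importer, was lower by -3.21 (SE 0.13; limma adjusted p 1.34e-12), with means of 5.52 (Damaraland), 9.58 (naked), 10.77 (guinea pig) and 10.75 (mouse). Slc39a7 (ZIP7), which releases zinc from the endoplasmic reticulum, was lower by -2.00 (SE 0.15; limma adjusted p 3.29e-09). Only naked mole-rat was low, at 5.88 against 10.55 to 11.48. Slc30a4, an exporter into vesicles, was lower by -1.98 (SE 0.17; limma adjusted p 1.98e-08) and, like Slc39a4, in all 4 pairings. In heart 0 of 14 of these genes were called higher and 5 lower by limma (10.8% and 12.6% of all genes in heart). At an unadjusted p under 0.05, 2 were higher there, and with voom 1.

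Amino acid shortage raises ATF4, a transcription factor that is known to act on several carriers named here. Of 20 genes of this response tested, 5 were higher and 4 lower in mole-rat liver, with a median of 0.21. Ddit4, an inhibitor of mTORC1, was 2.66 higher (SE 0.26; limma adjusted p 1.17e-07) and Trib3, a pseudokinase, 2.50 higher (SE 0.29; limma adjusted p 6.55e-07), both in all 4 pairings. Asns, asparagine synthetase, was lower by -1.93 (SE 0.45; limma adjusted p 0.00109), where guinea pig stood high at 10.47 and mouse low at 5.35. In Damaraland livers Asns had an SD of 1.54. In heart 3 of 19 were higher and 5 lower (10.8% and 12.6% of all genes in heart).

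Serine and glycine metabolism, which uses the substrates of GLYT1 and ASCT1, had 5 genes higher and 4 lower of 22 tested, with a median of -0.18. Gatm, which uses glycine to make the creatine precursor, was lower by -3.74 (SE 0.23; limma adjusted p 3.65e-10), with guinea pig at 14.30 and the other species between 6.24 and 8.23. Psat1 and Phgdh, enzymes of serine synthesis, were 3.05 (SE 0.13; limma adjusted p 3.2e-12) and 3.02 (SE 0.20; limma adjusted p 5.86e-10) higher. Mouse livers were low, at means of 5.34 and 5.44, against 11.33 to 12.66 in the other species. In heart 3 of 18 were higher and 1 lower by limma (10.8% and 12.6% of all genes in heart), and with voom 8 and 1.

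Of 26 genes of amino acid sensing by mTORC1, 2 were higher and 3 lower in liver, with a median of -0.23. In heart 1 was higher and 3 lower by limma (10.8% and 12.6% of all genes in heart), and 3 and 3 with voom. In liver Castor2, an arginine sensor relative, was lower by -2.58 (SE 0.17; limma adjusted p 1.04e-09) and Sesn3, a sestrin, by -1.36 (SE 0.19; limma adjusted p 7.86e-06). Nprl3, a subunit of the GATOR1 complex, was 1.43 higher there (SE 0.14; limma adjusted p 9.74e-08). These are means over species, and 0 of the 26 were called in all 4 pairings of a mole-rat with an outgroup in liver (6.29% of all genes). Of 14 acute phase genes, listed since ZIP14 is known to rise with inflammation, 4 were higher and 2 lower in liver, with a median of 0.45. Crp was lower by -2.47 (SE 0.18; limma adjusted p 3.2e-09), where Damaraland livers were lowest, with a mean of 0.78 scaled reads, and naked mole-rat livers (2551) lay between guinea pig (286) and mouse (5313). Saa4 was lower by -2.16 (SE 0.17; limma adjusted p 5.99e-09), again with Damaraland lowest (311 scaled reads) and naked mole-rat (16093) between mouse (3927) and guinea pig (28060). Itih3 was 1.73 higher (SE 0.22; limma adjusted p 2.21e-06). Of the 14 acute phase genes, 0 were called in all 4 pairings in liver. In heart 7 of 10 were higher and 1 lower (10.8% and 12.6% of all genes in heart). There 8 of 9 hepatocyte markers were higher too, with Fgb on both lists, and the part of hepatocyte RNA in this count was not tested.

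**Figure D5:**
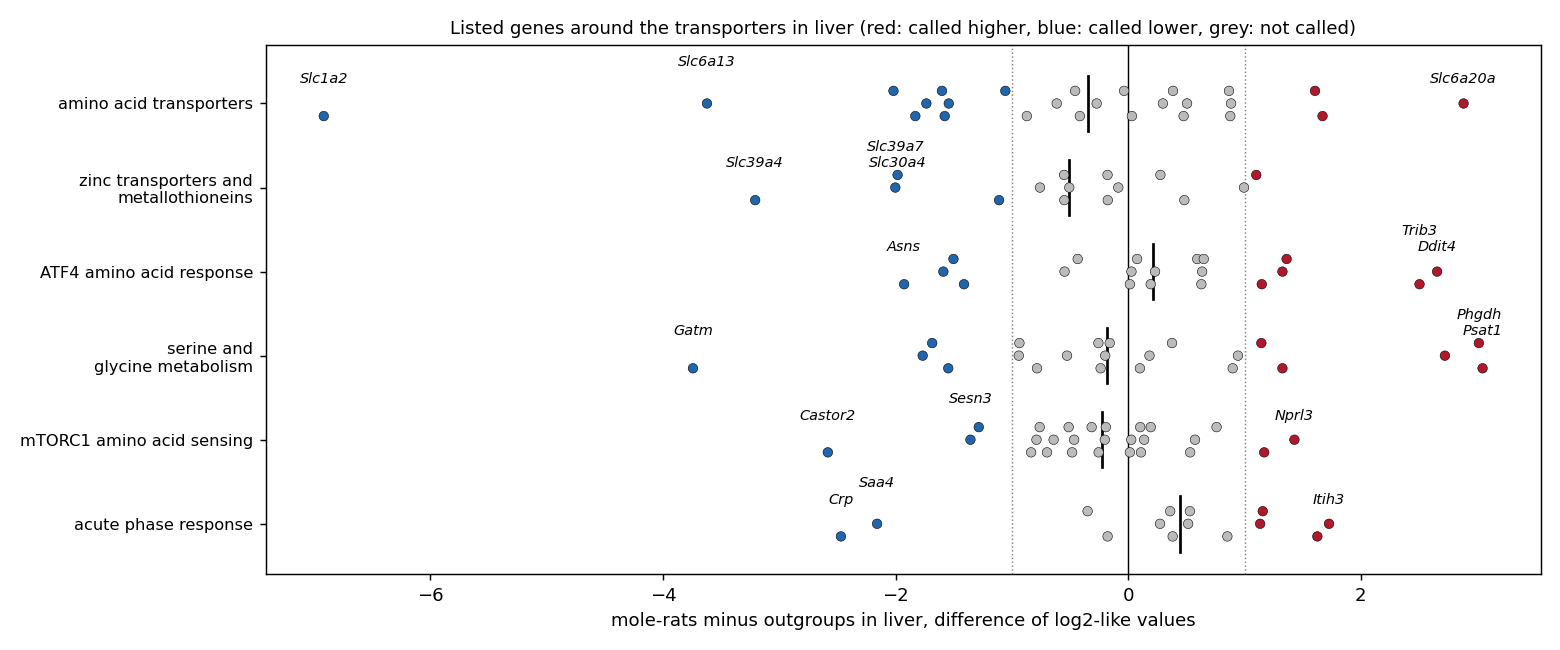
Differences between mole-rats and outgroups in liver on the log2-like scale (x axis) for listed genes other than the 10 carriers, by list (y axis). Red and blue points passed the test as higher or lower, grey points did not, short black lines are medians and dotted lines a difference of 1. Slc1a2, at -6.92, lies farthest from 0.

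Some genes had liver patterns close to those of the 3 leading carriers over the 14 livers, by Pearson correlation. As a description across libraries that share species and depth, Ppp1r21 (r = 0.99), Ulk4 (0.99) and Lepr (0.99), the leptin receptor gene, were nearest to Slc6a9. The liver means of Lepr were 11.66 (Damaraland), 9.70 (naked), 7.47 (mouse) and 4.38 (guinea pig), the same order as for Slc6a9. Acsm5, Cyp39a1 and Dusp12 were nearest to Slc1a4 (r = 0.99, 0.99 and 0.98), and Tmem268, Cdon and Erbb2 to Slc39a5 (r = 0.99, 0.98 and 0.98). Among the carriers, Slc6a9 and Slc1a4 had r = 0.90, Slc1a4 and Slc39a5 0.86, and Slc6a9 and Slc39a5 0.72. These 3 were chosen as high in mole-rat liver, which favours positive values among them, so nothing is read from these correlations. Slc7a2 and Slc39a5 had the most negative value, -0.92.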

How the data were processed

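The authors deposited a table of log2-like variance-stabilised values for each tissue; per the submitters' processing notes the tools were cutadapt, Salmon and DESeq2 and the build named is GRCm38. How reads of the other species were assigned to mouse gene identifiers is not given in the sources used here. Of 13928 identifiers, 13921 were matched to a symbol. The tables hold 26 further columns of other data, which were not used. Reads were recovered by inverting the transform: 100% of values were whole multiples of 1 read (tolerance 1e-05).

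Values were fitted with limma 3.58.1 in R 4.3.3, per tissue, with a coefficient per species, a variance trend and Benjamini-Hochberg adjustment over all genes tested (mean at least 1 above the value of 0 reads). A call needed an adjusted p under 0.05 and a difference of at least 1. The fit was tested on simulated data. The carriers, lists and tests were chosen with earlier results of these data known. For each list the 3 largest called liver differences were named, and for 3 carriers the 3 most correlated genes. Alternatives were the size threshold, the filter, centring, quantile normalisation, the variance trend, voom on recovered reads, fitting the replicate number as a block, and omission of single libraries. A marker counted among the called genes is not reported here by name.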

Additional observations from a re-analysis of the deposited data

Results flagged for a closer look

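Of 30 sets of 4 or 5 libraries of these genes, 2 had a library apart from the rest by Dixon's test, where chance gives about 1 in 20. Slc1a5 in Damaraland heart replicate 4 was 7.09 against 6.89 to 6.94 in the other 4, and Slc7a5 in Damaraland heart replicate 1 was 6.39 against 6.64 to 6.72. In 4 comparisons every library of a species lay on opposite sides of another species in liver and in heart. The share of all genes that did so was not taken, and the differences between tissues were not tested. Lack of overlap within a tissue was common: between guinea pig and mouse it held for 70.7% of all genes in liver and 74.2% in heart. Nothing is therefore read from the count. Slc39a5 in naked mole-rat minus guinea pig was 3.60 in liver and -2.53 in heart. Slc1a4 in guinea pig minus mouse was -1.35 in liver and 0.89 in heart. Slc7a2 in Damaraland mole-rat minus mouse was -2.27 in liver and 0.87 in heart. Slc3a2 in naked mole-rat minus guinea pig was -0.99 in liver and 0.27 in heart (limma adjusted p 0.223), where the gap between libraries was 0.03.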

How the results depend on the processing

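Dropping the size threshold raised the carriers called in heart from 2 to 9 for mole-rats minus outgroups, from 3 to 7 for guinea pig minus mouse and from 3 to 5 for naked minus Damaraland, and the listed genes called from 50 to 106 for heart and 56 to 114 for liver. Voom on recovered reads, which does not compress rare genes, gave 4 and 5 carriers for the first pair of contrasts. Leaving out each library gave 1 to 2 carriers in heart for mole-rats minus outgroups, Slc6a9 being lost without naked mole-rat replicate 3, mouse replicate 3, guinea pig replicate 3 or Damaraland replicate 2. In the liver fits a lone mouse liver was taken to vary like the other groups. Counts of carriers in liver, here with Slc6a9 included, stayed within 1.5 times under every alternative. A sign changed only in small differences that were not called. Under quantile normalisation Slc38a2 in heart became 0.089 for guinea pig minus mouse and 0.018 for naked minus Damaraland, Slc6a9 in heart -0.0100 for guinea pig minus mouse, and in liver Slc1a5 -0.074 and Slc7a5 -0.16 for guinea pig minus mouse. Centring gave 0.0021 for Slc7a2 in heart (guinea pig minus mouse) and 0.016 for Slc38a2 in liver (naked minus Damaraland). Without single libraries, the heart values ranged from -0.19 to 0.088 for Slc38a2, -0.0017 to 0.42 for Slc6a9 (both naked minus Damaraland), -0.11 to 0.28 for Slc6a9 and -0.30 to 0.15 for Slc7a2 (both guinea pig minus mouse). The liver values ranged from -0.11 to 0.15 for Slc38a2, -0.12 to 0.18 for Slc7a5 (both naked minus Damaraland) and -0.030 to 0.14 for Slc7a5 (guinea pig minus mouse).

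The replicate block gave -0.017 and -0.052 for Slc7a5 in liver (guinea pig minus mouse and naked minus Damaraland) and changed no call of a carrier. Same-numbered libraries are known to share only a number, since the labels give no batch. Their deviations from the species means had correlations of -0.26 to 0.30 (18 heart pairs, 2 over 0.1) and -0.23 to 0.15 (16 liver pairs, 5 over 0.1). With few reads, as for Slc7a5 in liver, depth limits what can be seen.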
